A study of Mus musculus with 12 samples.

Results

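Smad3-knockout (KO) kidneys were compared with wild-type (WT) kidneys in mice that had received no injury, to describe how noncoding RNA differs between genotypes. The comparison used 4 of the 12 libraries of the series, chosen by their source labels: 2 from KO normal kidney and 2 from WT normal kidney. All 4 came from C57BL/6J mice labelled normal and untreated. The other 8 libraries were KO and WT kidneys with an obstructed ureter (unilateral ureteral obstruction, UUO) and KO and WT kidneys with glomerulonephritis raised by an antibody against the glomerular basement membrane (anti-GBM), with 2 libraries in each group. The labels give day 5 for UUO, and day 10 and a dose of 60 µg per g for anti-GBM, so the injured states differ in time as well as model. The labels name no Cre line or tissue restriction for the knockout, and give neither the sex nor the age of any single animal. For the injury models the labels speak of mice of both genders, and of sham-operated as well as normal mice as controls; the 4 libraries used here carry the normal label. Nothing in the labels says that the 2 libraries of a group came from separate animals, so every p-value below measures only the spread between these libraries, which may be technical.

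Smad3 is a cytoplasmic protein that is phosphorylated when TGF-β binds its receptors, enters the nucleus with Smad4 and binds DNA, and it is known in the kidney for driving fibrosis after injury. Noncoding RNAs fall into several families with different work. Small nucleolar and small Cajal body RNAs guide chemical modification of ribosomal and spliceosomal RNA, microRNA precursors are cut into short RNAs that silence messengers, B2 elements are repeats derived from transfer RNA, and long noncoding RNAs such as Xist and Neat1 act on chromatin or nuclear bodies.

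The tables list 42452 putative noncoding transcripts over the 12 libraries. Of these, 10852 carry a match to a noncoding RNA database (identifiers beginning ncRNA_aligned) and 31600 are predictions with no match (ncRNA_predict). Each library held between 5961009 and 6263666 reads assigned to transcripts, and 37690 transcripts had a read in at least 1 of the 4 libraries. Smad3 messenger RNA is not among these transcripts, so the genotype rests on the labels. The protein-coding kidney markers could not be used for the same reason, and none of the 12 tubule markers or 3 podocyte markers had a matching entry. The renin messenger element, from the gene that juxtaglomerular cells of the kidney express, was read in all 4 libraries, at 106.4 and 392 CPM (reads of a transcript scaled to a common library size by TMM factors) in KO kidneys and 166 and 109 CPM in WT kidneys.

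One library stood apart in an RNA that marks sex. Xist, the long noncoding RNA that coats the inactive X chromosome of female cells, had 19.7 and 962 CPM in KO normal kidneys and 0.644 and 16.4 CPM in WT normal kidneys. The second KO library was thus far above the other 3, which themselves were not alike. Its fitted difference did not pass the test (log2 5.85 with a standard error of 2.98, adjusted p = 0.567, edgeR quasi-likelihood). The part of sex in the values below was not tested. The 119 transcripts called below were among the 1521 called when the second KO library was left out; that fit takes the spread of the genotype comparison from the WT pair alone, so it is a weak check.

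A further difference lay in the replicates. Across transcripts, log2 CPM of the KO libraries correlated at 0.949 and that of the WT libraries at 0.973, while the second KO library and the first WT library correlated at 0.951. On the first principal component, which held 53.2% of the variance, the KO libraries lay at -45.1 and -20.3 and the WT libraries at 31 and 34.4. The genotypes therefore separated on that axis although the KO pair was the looser one. A transcript of 290 bases took 4.81% and 6.90% of reads in KO libraries and 2.98% and 1.89% in WT libraries. Leaving out this transcript and the one with most reads kept 117 of the 119 calls described below.

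Of 10814 transcripts with enough reads to test, 27 were higher and 92 were lower in KO than in WT normal kidney at an adjusted p under 0.05 (edgeR quasi-likelihood test, Benjamini-Hochberg adjustment), which is 0.25% and 0.851% of those tested. In all 119 the KO and WT libraries did not overlap. That order is common by itself: the groups did not overlap with KO lower in 21.9% and with KO higher in 22.7% of all tested transcripts. At an unadjusted p under 0.05 there were 1438 transcripts, 679 higher and 759 lower. Among the lower transcripts 67 had a fitted log2 beyond -2, and 16 of the higher ones were beyond 2. The median log2 difference over all tested transcripts was 0.03.

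How many transcripts passed differed widely with the libraries fitted and the method used, and the cause was not tested. A fit over all 12 libraries, in which the more variable injured kidneys share 1 estimate of the spread, called 4 of 24816 transcripts (0.0161%), all lower in KO, and gave 550 at an unadjusted p under 0.05, where 5% of those tested is 1241. Those 4 are ncRNA_aligned_6640, ncRNA_aligned_1946, ncRNA_aligned_2421 and ncRNA_aligned_2560, and they were also called in the fit of the 4 normal libraries. All 119 kept their sign in the 12-library fit, which holds the same normal libraries and so is no independent check of the sign. A fit over the 9 libraries left after 3 injured ones with poor coverage were dropped called 279, among them 109 of the 119. DESeq2 on the 4 libraries called 282 (2.61%), 87 higher (0.805%) and 195 lower (1.8%), among them 117 of the 119.

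**Figure D1:**
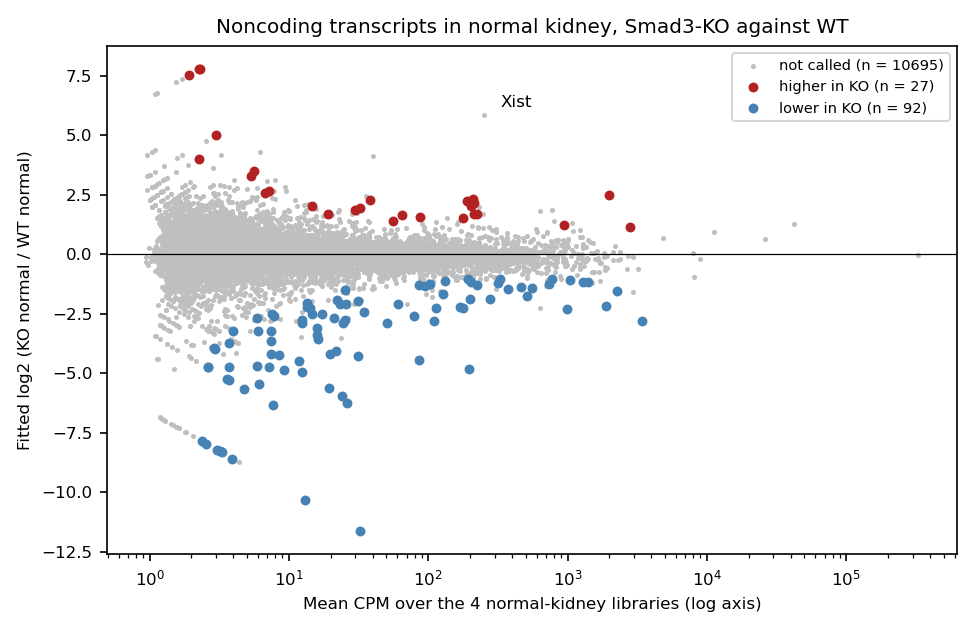
Fitted log2 ratio of KO normal over WT normal (vertical axis) against mean CPM over the 4 libraries (horizontal log axis) for the 10814 tested transcripts, with the 27 called higher in KO in red and the 92 called lower in blue. Lower calls reach further from 0 than higher ones, and Xist lies high on the plot without being called.

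The clearest losses were transcripts with no read at all in either KO library. Transcript ncRNA_aligned_6640, 1892 bases long and matched to a mouse long noncoding RNA entry, had 0 and 0 reads in KO kidneys and 412 and 390 reads in WT kidneys. Reads covered 92.9% and 95.1% of its length in the WT libraries, per the deposited coverage column, so the reads were spread along it. Taking 3 reads over the KO pair as the floor, it was at least 259-fold lower in KO (WT mean 65.2 ± 1.58 CPM, SD, n = 2; adjusted p = 0.00228, edgeR). Transcript ncRNA_aligned_2560, of 486 bases and matched to the cDNA AK151264, had 0 and 0 CPM in KO kidneys and 33.5 and 18.9 CPM in WT kidneys, at least 104-fold lower in KO (adjusted p = 0.0106, edgeR). In all, 8 of the 92 lower transcripts had no read in either KO library. These counts and floors cover counting error only.

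A human-lncRNA-like transcript of this kind, ncRNA_aligned_2133 (singled out after its values were seen), was read far less. It had 0 and 0 reads in KO normal kidneys and 60 and 37 reads in WT normal kidneys, over 12.3% and 10.2% of its 5262 bases. This makes it at least 31.2-fold lower in KO (adjusted p = 0.0215, edgeR; 0.0579 in the 12-library fit). It also had 0 CPM in both KO UUO and both KO anti-GBM libraries, against 34.7 and 13.8 CPM in WT UUO libraries and 5.25 and 4.98 CPM in WT anti-GBM libraries. In none of the 6 KO libraries was a read of it counted.

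Several cDNA-matched transcripts were nearly lost. AK014162 (ncRNA_aligned_2421) had 0.496 and 0.854 CPM in KO kidneys and 63.4 and 40.4 CPM in WT kidneys (log2 -6.23, standard error 0.46, adjusted p = 0.00292, edgeR). Its reads, 3 and 5 in KO libraries, still spread over 11.5% and 24.3% of its length, against 99.6% and 99.2% in WT libraries. AK004424 (ncRNA_aligned_2042) had 1.49 and 0 CPM in KO kidneys and 35.9 and 39.9 CPM in WT kidneys (adjusted p = 0.0195, edgeR; DESeq2 gave 0.0923). AK008073 (ncRNA_aligned_999) had 0.991 and 3.07 CPM in KO kidneys and 29.9 and 44.5 CPM in WT kidneys, a mean 18.3-fold higher in WT (adjusted p = 0.0152, edgeR). In each of these both WT libraries stood far above both KO libraries.

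AK037717 (ncRNA_aligned_9592) had 17.5 and 6.15 CPM in KO kidneys and 86.5 and 90.7 CPM in WT kidneys, 7.49-fold higher in WT on the mean (adjusted p = 0.0311, edgeR). The roles of these cDNA-matched transcripts are not annotated in the tables or in the annotation used here, and none is given.

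Some of the lower transcripts are pieces of 1 database entry, so they do not count as separate genes. The 69 matched transcripts that were called fell on 62 distinct entries. AK083315 was the most frequent: 9 transcripts match it, 6 were tested, all 6 had a negative log2 (median -3.08) and 4 were called lower. Piece ncRNA_aligned_10526 had 2.97 and 1.88 CPM in KO kidneys and 39.4 and 42.7 CPM in WT kidneys (log2 -4.07, standard error 0.36, adjusted p = 0.00824, edgeR). Piece ncRNA_aligned_10264 had 0.991 and 4.10 CPM in KO kidneys and 29.1 and 30.9 CPM in WT kidneys. Of the remaining called pieces (singled out after their values were seen), ncRNA_aligned_10350 had 7.601 and 14.3 CPM in KO kidneys and 65.4 and 52.1 CPM in WT kidneys. The other, ncRNA_aligned_10123, had 1.82 and 2.56 CPM in KO kidneys and 14.5 and 12.3 CPM in WT kidneys. The pieces thus moved the same way with folds of their own.

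AK080180 is represented by 3 tested transcripts, 2 of which fell. Transcript ncRNA_aligned_2997 had 5.29 and 21.3 CPM in KO kidneys and 371 and 381 CPM in WT kidneys (log2 -4.82, standard error 0.58, adjusted p = 0.0215, edgeR). Transcript ncRNA_aligned_2996 had 2.48 and 12.6 CPM in KO kidneys and 157 and 174 CPM in WT kidneys. In both pieces the second KO library was the higher of the KO pair and the WT pair was tight. Without the first WT library neither passed, at adjusted p = 0.162 and 0.225 (edgeR).

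AK037011 also gave 2 lower pieces, ncRNA_aligned_10503 (18.8 and 26.8 CPM in KO, 142 and 130 CPM in WT) and ncRNA_aligned_8284 (46.6 and 77.2 CPM in KO, 303 and 280 CPM in WT). AK041002 did not behave as 1 unit. Its piece ncRNA_aligned_3026 had 9.58 and 13.7 CPM in KO kidneys and 2.09 and 1.81 CPM in WT kidneys, while ncRNA_aligned_3027 had 127 and 129 CPM in KO kidneys and 256 and 264 CPM in WT kidneys. Both were called (adjusted p = 0.0420 and 0.0488, edgeR), in opposite directions, and both calls were lost without either WT library (adjusted p between 0.0557 and 0.253, edgeR). These AK037011 and AK041002 pieces were singled out after their values were seen.

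**Figure D2:**
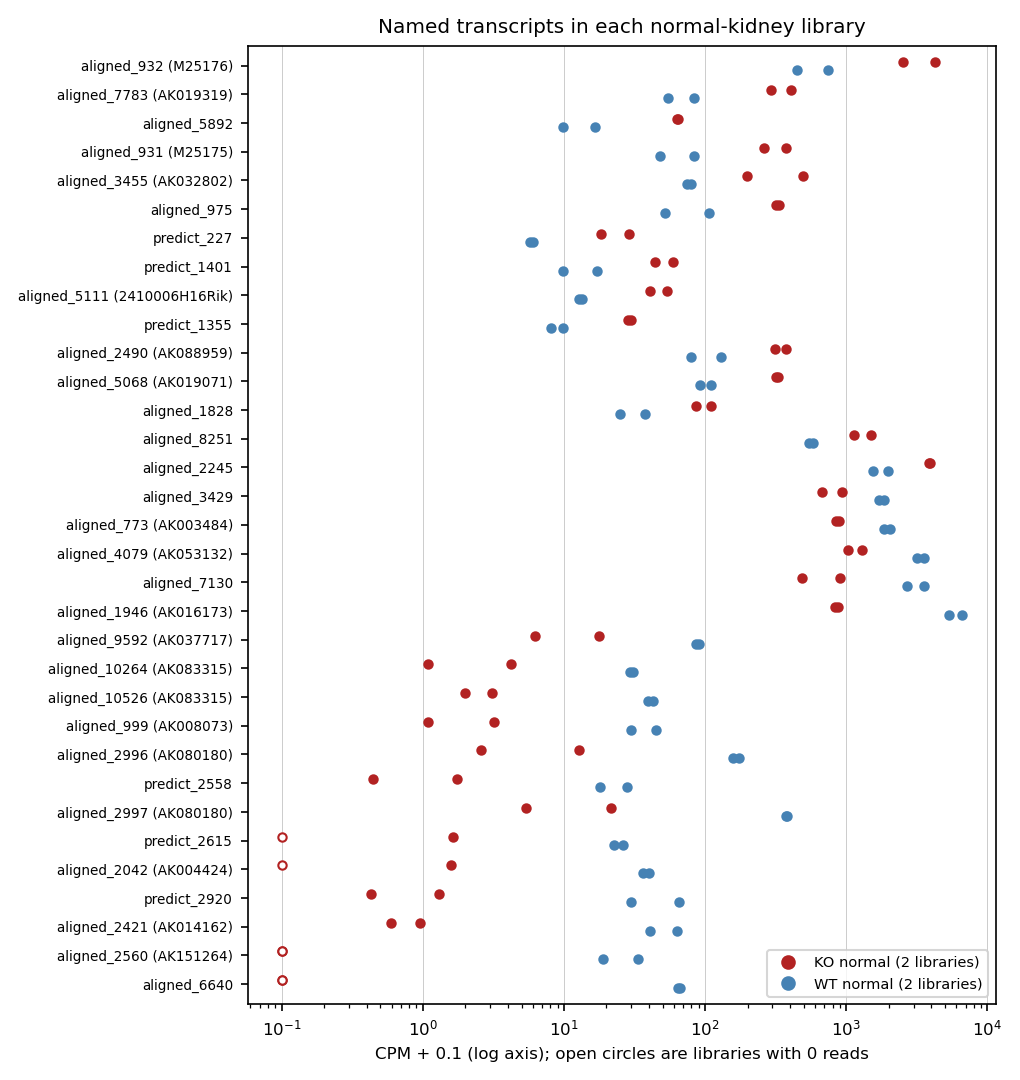
CPM in each library (horizontal log axis, with 0.1 added) of the 33 transcripts chosen by the naming rule, ordered by fitted log2 ratio, with the 2 KO normal libraries in red drawn above the 2 WT normal libraries in blue. In every row the red and blue points are apart, and both KO points of ncRNA_aligned_6640 and ncRNA_aligned_2560 are open circles at 0 reads.

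Among the transcripts with most reads, the reduction was smaller in fold. AK016173 (ncRNA_aligned_1946, 7652 bases) had 836 and 866 CPM in KO kidneys and 5361 and 6570 CPM in WT kidneys, 7.01-fold higher in WT on the mean (log2 -2.81, standard error 0.19, adjusted p = 0.00228, edgeR; 0.00842 in the 12-library fit). It rests on 5057 and 5073 reads in KO libraries and 33293 and 39972 reads in WT libraries, and reads covered 95.5% to 95.8% of it in all 4. It is the only 1 of the 4 transcripts called by both fits that kept a substantial level in KO kidneys.

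A transcript matched to the B2 repeat element, ncRNA_aligned_7130, had 481 and 898 CPM in KO kidneys and 2686 and 3524 CPM in WT kidneys (log2 -2.17, standard error 0.31, adjusted p = 0.0241, edgeR). It was the 1 call among 48 tested B1 or B2 matches, 2.08% against 1.10% of all tested, and the median log2 of that class was 0.07. Repeat-derived transcripts share sequence with many copies. Only uniquely mapped reads were counted, so reads shared among copies may be missing from these values. AK053132 (ncRNA_aligned_4079) had 1024 and 1296 CPM in KO kidneys and 3551 and 3145 CPM in WT kidneys (adjusted p = 0.0181, edgeR). AK003484 (ncRNA_aligned_773) had 883 and 847 CPM in KO kidneys and 1864 and 2038 CPM in WT kidneys (adjusted p = 0.0271, edgeR).

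A conserved structure predicted by EvoFold gave ncRNA_aligned_3429, with 677 and 938 CPM in KO kidneys and 1716 and 1849 CPM in WT kidneys (adjusted p = 0.0497, edgeR). A second piece of the same entry, ncRNA_aligned_3430, had 247.9 and 355.5 CPM in KO kidneys and 761.8 and 863.5 CPM in WT kidneys (singled out after its values were seen; adjusted p = 0.0340, edgeR). The first of these lies at the threshold and did not pass with DESeq2 size factors, without the dominant transcripts, with the filter of 10 reads, without the robust fit or without the second WT library (adjusted p between 0.0524 and 0.0887, edgeR).

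A gammaretrovirus packaging signal, the stretch by which retroviral RNA is taken into particles and which endogenous proviruses of mice carry, was matched by ncRNA_aligned_8234 (singled out after its values were seen). It had 39.2 and 82.1 CPM in KO kidneys and 276 and 282 CPM in WT kidneys (log2 -2.20, standard error 0.33, adjusted p = 0.0311, edgeR). Of the 2 transcripts of this kind in the tables, the other was not called. Only uniquely mapped reads were counted, so reads shared by related proviruses may be missing from these values.

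Among higher transcripts with a database match and a mean of 10 CPM or more, M25176 (ncRNA_aligned_932) had the largest fold. It had 4219 and 2516 CPM in KO kidneys and 744 and 450 CPM in WT kidneys, a 5.64-fold higher mean in KO (log2 2.50, standard error 0.32, adjusted p = 0.0192, edgeR). The entry M25175 (ncRNA_aligned_931) had 371 and 260 CPM in KO kidneys and 83.2 and 48.0 CPM in WT kidneys, 4.81-fold higher in KO (adjusted p = 0.0215, edgeR). Both followed the same order of libraries, with the first KO library highest and the second WT library lowest. What these entries encode is not stated in the tables.

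AK019319 (ncRNA_aligned_7783) had 403 and 292 CPM in KO kidneys and 83.4 and 54.4 CPM in WT kidneys (adjusted p = 0.0143, edgeR). AK032802 (ncRNA_aligned_3455) had 495 and 199 CPM in KO kidneys and 79.9 and 74.3 CPM in WT kidneys (adjusted p = 0.0488, edgeR; 0.128 with limma-voom), with a KO pair that differed widely but stood above both WT libraries. AK088959 (ncRNA_aligned_2490) had 371 and 314 CPM in KO kidneys and 129 and 79.2 CPM in WT kidneys (adjusted p = 0.0334, edgeR). AK019071 (ncRNA_aligned_5068) had 329 and 317 CPM in KO kidneys and 110 and 91.2 CPM in WT kidneys, 3.21-fold higher in KO (adjusted p = 0.0143, edgeR). Of the 4, AK019071 had the closest KO pair.

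Among entries of the mouse long noncoding RNA collection, ncRNA_aligned_5892 had 62.6 and 63.9 CPM in KO kidneys and 16.4 and 9.70 CPM in WT kidneys (adjusted p = 0.0215, edgeR). The much-read ncRNA_aligned_2245 had 3863 and 3917 CPM in KO kidneys and 1986 and 1539 CPM in WT kidneys, 2.21-fold higher in KO (adjusted p = 0.0382, edgeR; 0.219 without the second WT library). In that class 2 were higher and 4 lower of 543 tested, 1.10%, the same share as over all tested. The EvoFold structure ncRNA_aligned_1828 had 85.6 and 111 CPM in KO kidneys and 37.5 and 24.7 CPM in WT kidneys (adjusted p = 0.0416, edgeR; 0.1003 without the second WT library).

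The calls among guide and small nuclear RNAs were few and all higher in KO. Of 12 tested spliceosomal or other small nuclear RNA matches, 1 was higher and 0 lower (8.33% called, against 1.1% of all tested). The small Cajal body RNA scaRNA6, also named U88, directs modification of a spliceosomal RNA and was matched by ncRNA_aligned_975. It had 335 and 318 CPM in KO kidneys and 107 and 51.9 CPM in WT kidneys, 4.11-fold higher in KO (log2 2.04, standard error 0.32, adjusted p = 0.0346, edgeR). The H/ACA small nucleolar RNA U17, also called E1 or SNORA73, takes part in processing of ribosomal RNA precursors. Its transcript ncRNA_aligned_2437 (singled out after its values were seen) had 240 and 294 CPM in KO kidneys and 111 and 70.8 CPM in WT kidneys (adjusted p = 0.0413, edgeR; 0.105 without the second WT library). A small nuclear RNA entry, V00592 (ncRNA_aligned_8251), had 1128 and 1503 CPM in KO kidneys and 583 and 542 CPM in WT kidneys (adjusted p = 0.0379, edgeR; 0.0510 and 0.0958 without the first or the second WT library).

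Of 89 tested small nucleolar or Cajal body matches, 2 were higher and 0 lower (2.25% called, against 1.10% of all tested). The fitted log2 was above 0 in 69 of the 89, with a median of 0.45, which is 77.5%, against 52.0% of all tested transcripts and a median of 0.03. With DESeq2 size factors the class median was 0.43, and with library size alone it was 0.44. At an unadjusted p under 0.05 (edgeR) there were 22 of the 89, against 1438 of all 10814 tested. The summed level of the class was 14696 and 15838 CPM in KO libraries and 12478 and 9838 CPM in WT libraries. All transcripts under 300 bases summed to 69168 and 96215 CPM in KO libraries and 46401 and 29829 CPM in WT libraries. Most of that sum is 1 transcript of 290 bases, ncRNA_aligned_7824, with 48434 and 70263 CPM in KO libraries and 29567 and 19445 CPM in WT libraries (adjusted p = 0.0821, edgeR). The median log2 of the 381 tested transcripts of this length was 0.04, with 50.9% above 0. The RNA was size-selected above 150 bases, so for guide RNAs shorter than that the values may speak for longer transcripts matched to them. The part of fragment size or of RNA quality in these values was not tested.

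The Ensembl lincRNA 2410006H16Rik (ncRNA_aligned_5111), at chr11:62416379-62418309 on the forward strand of NCBIM37, contains the genes of 3 small nucleolar RNAs, Snord49b, Snord49a and Snord65, each of 72 bases. Its transcript had 53.2 and 40.5 CPM in KO kidneys and 13.4 and 12.7 CPM in WT kidneys, 3.60-fold higher in KO (log2 1.85, standard error 0.28, adjusted p = 0.0311, edgeR). It was the 1 call among 51 tested Ensembl lincRNAs, 1.96%, whose median log2 was 0.33. The 3 small RNAs are shorter than the 150 bases at which the RNA was size-selected, so the reads speak for the host transcript.

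Among microRNA precursor matches, 1 was called. The transcript ncRNA_aligned_6360, 4267 bases long and matched to mir-135a-1, had 191 and 195 CPM in KO kidneys and 436 and 454 CPM in WT kidneys. Both groups were tight and did not overlap, and the WT mean was 2.31-fold higher (log2 -1.21, standard error 0.18, adjusted p = 0.0293, edgeR; 0.0827 without the second WT library). Reads covered 97.1% to 97.4% of the transcript in all 4 libraries. It was 1 of 47 tested precursor matches, 2.13%, with a class median of 0.00. The libraries kept RNAs over 150 bases, so the long transcript matched to the precursor was measured and the mature microRNA was not. Its sequence was not at hand, so whether it holds the hairpin was not checked.

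The hairpin and its products are shown because the match to this precursor was the only called member of a list of noncoding RNAs tied to TGF-β, Smad3 or fibrosis. In RefSeq (GRCm38.p6) the hairpin lies at chr9:106154124-106154213 on the forward strand and has 90 bases. Capitals in the hairpin mark the mature arms, and capitals in the mature RNAs mark the seed, bases 2 to 8, by which a microRNA pairs with its targets.
mir-135a-1 hairpin: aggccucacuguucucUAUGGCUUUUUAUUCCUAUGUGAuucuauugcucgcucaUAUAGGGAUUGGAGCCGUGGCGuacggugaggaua
miR-135a-5p: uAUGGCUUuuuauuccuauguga
miR-135a-1-3p: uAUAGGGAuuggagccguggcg
miR-200b-3p: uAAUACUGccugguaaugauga
let-7c-5p: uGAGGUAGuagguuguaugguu
The last 2 are the products of the other microRNA precursors of that list that could be tested, and no seed is shared among the 4 mature RNAs.

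The microRNA miR-200b represses the Zeb factors and so maintains an epithelial state. The transcript matched to its precursor had 29.6 and 11.6 CPM in KO kidneys and 22.5 and 27.6 CPM in WT kidneys (adjusted p = 0.851, edgeR). The let-7c-2 precursor match had 23.0 and 23.6 CPM in KO kidneys and 27.1 and 21.2 CPM in WT kidneys (adjusted p = 0.970, edgeR). Both pairs of groups overlapped. Of 33 entries on that list, 10 transcripts were in the tables, 5 were tested, 1 was lower (mir-135a-1) and 0 were higher, which is 20% called against 1.1% of all tested. Their median log2 was -0.05, against 0.03 for all tested.

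Among the rest of that list, the nuclear-body RNA Neat1 (ncRNA_aligned_3989) had 155 and 39.1 CPM in KO kidneys and 61.3 and 121 CPM in WT kidneys, without a separation of the groups (adjusted p = 0.974, edgeR). The predicted transcript ncRNA_predict_5318 had 3.47 and 2.05 CPM in KO kidneys and 0.966 and 1.15 CPM in WT kidneys (log2 1.37, standard error 0.64, adjusted p = 0.414, edgeR). Further predicted transcripts of the list, ncRNA_predict_17856 and ncRNA_predict_28496, were too low to test, with at most 10 reads in a library. H19, the imprinted growth-regulating RNA, had no read in any of the 4 libraries.

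The housekeeping list gave no call, but the called guide and small nuclear RNAs given above are not on it. All 6 of its tested transcripts, including Xist and Neat1, had a log2 above 0, with a median of 0.74 (limma-voom gave Neat1 -0.14). Over all tested transcripts 52.0% were above 0, with a median of 0.03. In the edgeR test 0 of 6 passed, and 1 had an unadjusted p under 0.05, against 1438 of all 10814 tested. RNase MRP RNA, which processes ribosomal RNA, had 13209 and 16545 CPM in KO kidneys and 10409 and 5084 CPM in WT kidneys (log2 0.94, standard error 0.31, adjusted p = 0.258, edgeR). The Y RNA match had 43.8 and 100 CPM in KO kidneys and 52.0 and 34.4 CPM in WT kidneys, with overlap.

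Control elements of messenger RNAs were measured in 31 tested transcripts, and 0 passed the edgeR test. Their median log2 was -0.04, and 6 had an unadjusted p under 0.05, against 1438 of all 10814 tested. The 12 tested selenocysteine insertion elements, which let ribosomes read a stop codon as selenocysteine, had a median of -0.10. The element of vimentin, an intermediate filament of mesenchymal cells, had 143 and 259 CPM in KO kidneys and 149 and 106.5 CPM in WT kidneys (adjusted p = 0.415, edgeR). The CAESAR element of connective tissue growth factor, a profibrotic messenger, had 244 and 80.6 CPM in KO kidneys and 98.5 and 137 CPM in WT kidneys (adjusted p = 0.757, edgeR). The renin element given above did not pass either (adjusted p = 0.569, edgeR). The KO libraries differed more from each other than from WT for both renin and CAESAR.

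Few markers of blood cells could be read. The element of Spi1, a transcription factor of myeloid cells, had 0.496 and 12.3 CPM in KO kidneys and 2.58 and 2.63 CPM in WT kidneys. It was thus highest in the second KO library, the one with high Xist and renin element, where it had 72 reads over 86.6% of its length (adjusted p = 0.691, edgeR). Its log2 was 1.29 in edgeR and -0.04 with limma-voom. Of the 8 entries of that marker list 2 were in the tables, and they summed to 1.49 and 12.5 CPM in KO libraries and 3.22 and 2.96 CPM in WT libraries. No entry of the endothelial, muscle, liver, nerve or fat marker lists was present. Their part in the differences between genotypes was not tested. In whole kidney, fewer cells of a type and less RNA per cell cannot be told apart.

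Transcripts with no database match made up 50 of the 119 calls: 11 higher and 39 lower of 4924 tested, 1.02%, with a class median of 0.09. Matched transcripts gave 16 higher and 53 lower of 5890 tested, 1.17%, with a median of -0.01. The predicted transcripts named by the rule on the lower side were ncRNA_predict_2920, ncRNA_predict_2615 and ncRNA_predict_2558. The first had 0.330 and 1.20 CPM in KO kidneys and 65.4 and 29.8 CPM in WT kidneys (adjusted p = 0.0108, edgeR). The second had 0 and 1.54 CPM in KO kidneys and 22.5 and 26.0 CPM in WT kidneys, and the third had 1.65 and 0.342 CPM in KO kidneys and 17.9 and 27.8 CPM in WT kidneys. All 3 came close to absence in KO kidneys.

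On the higher side, ncRNA_predict_1401 had 59.5 and 44.2 CPM in KO kidneys and 16.9 and 9.70 CPM in WT kidneys. Transcript ncRNA_predict_227 had 28.6 and 18.3 CPM in KO kidneys and 5.64 and 5.92 CPM in WT kidneys, and ncRNA_predict_1355 had 29.9 and 28.5 CPM in KO kidneys and 9.66 and 8.05 CPM in WT kidneys. Their adjusted p-values were 0.0459, 0.0485 and 0.0459 (edgeR), and each was lost without the second WT library (ncRNA_predict_227 and ncRNA_predict_1355 also without the first). With no read in either WT library, 3 predicted transcripts were called higher (named after their values were seen). Against a floor of 3 reads over the WT pair, ncRNA_predict_633 was at least 18.9-fold, ncRNA_predict_5887 at least 18.5-fold and ncRNA_predict_2323 at least 15.8-fold higher in KO. All rest on few reads, between 17 and 37 in a KO library.

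Other classes showed shares near the background. Among cDNA matches described as noncoding, 5 were higher and 21 lower of 2302 tested (1.13%), and among cDNA matches without a description 4 were higher and 12 lower of 1169 (1.37%). EvoFold structures had 1 higher and 8 lower of 1086 (0.829%), and RNAz structures 0 higher and 3 lower of 331 (0.906%). By length, 2 were higher and 1 lower of 381 tested under 300 bases, 13 higher and 22 lower of 2710 from there to 1000 bases, 6 higher and 34 lower of 4191 from there to 3000 bases, and 6 higher and 35 lower of 3532 at or above that. The called transcripts also had more reads than the rest, with a median of mean CPM of 38.2 for the higher and 21.9 for the lower ones against 5.07 for all tested.

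The same transcripts were then followed into the injured kidneys, whose libraries are not shared with the normal groups. Taken alone, the genotype comparison called 0 of 19535 transcripts in UUO (0.0%; 563 at an unadjusted p under 0.05, edgeR) and 0 of 15714 in anti-GBM kidney (0.0%; 2629 at an unadjusted p under 0.05, edgeR), while DESeq2 called 25 and 422. Levels below are scaled within each kidney state and are not to be compared across states. Xist had 93.0 and 941 CPM in KO anti-GBM kidneys and 3.08 and 1.52 CPM in WT anti-GBM kidneys. In UUO it had 0.593 and 1.34 CPM in KO kidneys and 0 and 2.44 CPM in WT kidneys. The part of sex in the anti-GBM comparison and in the comparisons of normal with injured kidney was not tested.

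Most transcripts called lower in KO normal kidney had a fitted log2 above 0 in KO UUO kidney. Of the 92, 80 were tested in UUO, and 70 of them (87.5%) had a log2 above 0, with a median of 0.97, against 57.5% and a median of 0.15 for all transcripts tested in both normal and UUO kidney. In anti-GBM kidney 48 of 79 (60.8%) were above 0, with a median of 0.28, against 52.5% and 0.07 for all. Of the 27 higher in KO normal kidney, 15 of 23 (65.2%) were above 0 in UUO and 18 of 22 (81.8%) in anti-GBM kidney. Leaving out 1 UUO library at a time gave 59 to 71 of the 80 above 0. The lowest was without the second KO UUO library, with 73.8% above 0 and a median of 0.56, against 43.7% and a median of -0.19 for all. Leaving out the first KO anti-GBM library gave 37 of 79, with a median of -0.10, against 55.3% of all above 0, so the anti-GBM count rests on that library. The first KO UUO, first KO anti-GBM and first WT UUO libraries also covered less of each transcript than the others for the same number of reads, with ratios of covered to expected length of 0.285, 0.338 and 0.447, against 0.636 to 0.911 in the other 9 libraries. The part of that in these counts was not tested.

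**Figure D3:**
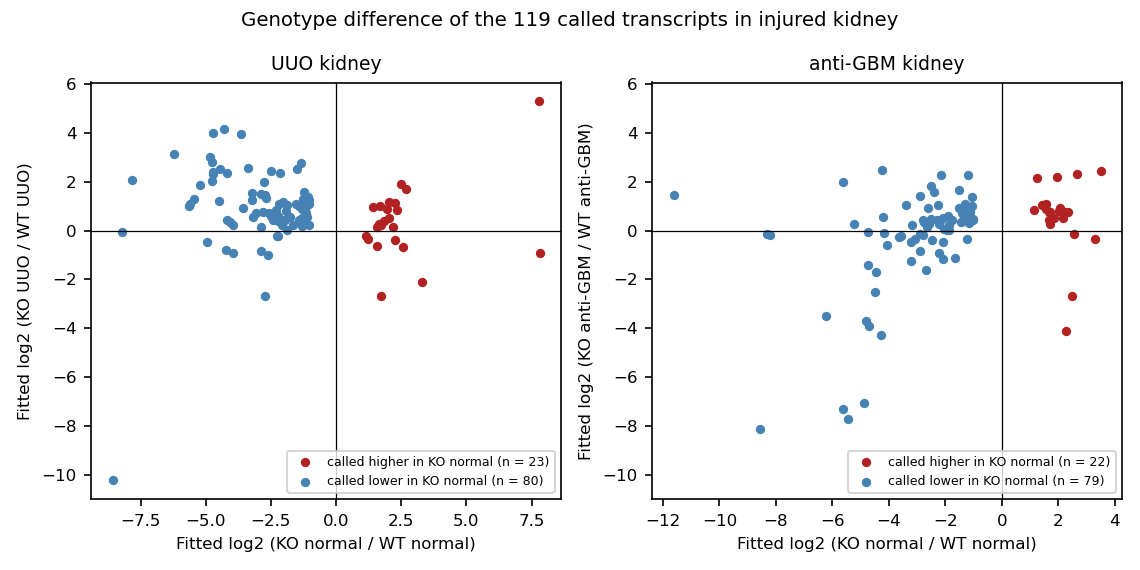
Fitted log2 ratio of KO over WT in UUO kidney (left, vertical axis) and in anti-GBM kidney (right, vertical axis) against the ratio in normal kidney (horizontal axis) for the called transcripts also tested in that injured state. Of the 80 blue points of UUO, 70 lie above the horizontal zero line.

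The difference between the genotype effect in normal kidney and its mean in the 2 injured states was tested in 1 model over the 12 libraries. It passed for 11 of 24816 transcripts (0.0443%), 1 positive (0.00403%) and 10 negative (0.0403%), and over all tested transcripts its median was 0.53, so single values are to be read against that shift. Of the 11, 7 were also called in normal kidney, all lower. That overlap is partly built in, because the tested difference contains the normal effect from the same libraries. Transcript ncRNA_aligned_6640 had 0 and 0 CPM in KO normal and 66.3 and 64.1 CPM in WT normal kidneys. It had 0.741 and 1.56 CPM in KO UUO and 1.18 and 0.853 CPM in WT UUO kidneys, and 20.8 and 8.78 CPM in KO anti-GBM and 5.14 and 5.63 CPM in WT anti-GBM kidneys. The difference of effects passed (adjusted p = 3.23e-05, edgeR), but its size is not given here because the KO normal pair has no read.

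AK016173 (ncRNA_aligned_1946) had 11306 and 6506 CPM in KO UUO and 6846 and 3795 CPM in WT UUO kidneys, and 3323 and 1339 CPM in KO anti-GBM and 1424 and 2044 CPM in WT anti-GBM kidneys. Its reduction in KO normal kidney was not seen in either injured state (difference -3.43, standard error 0.53, adjusted p = 0.0141, edgeR). The mir-135a-1 transcript had 327 and 239 CPM in KO UUO and 129 and 74.8 CPM in WT UUO kidneys, and 749 and 415 CPM in KO anti-GBM and 105.7 and 133 CPM in WT anti-GBM kidneys. It was thus lower in KO in normal kidney, while both KO libraries were above both WT libraries in each injured state (difference -3.12, standard error 0.53, adjusted p = 0.0199, edgeR). M25176, for contrast, had 609 and 870 CPM in KO UUO and 138 and 259 CPM in WT UUO kidneys, and 109 and 303 CPM in KO anti-GBM and 2107 and 556 CPM in WT anti-GBM kidneys, and its difference was not called.

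Leaving out any 1 of the 4 normal libraries left 1 or 2 calls, and among the 7 transcripts only ncRNA_aligned_6640 passed in those fits. The fitted differences moved by unequal amounts in those fits. For ncRNA_aligned_1946 they lay between -3.56 and -3.28, and for the mir-135a-1 transcript between -3.20 and -3.05. They moved further for ncRNA_aligned_999 (-6.47 to -4.74), ncRNA_aligned_4173 (-4.15 to -3.13) and ncRNA_aligned_2421 (-6.62 to -5.74). Without 1 KO anti-GBM library, of the 7 only ncRNA_aligned_6640 and ncRNA_aligned_1946 passed both times. With library size alone as the scaling, ncRNA_aligned_1946 did not pass (adjusted p = 0.0522, edgeR). Over the 9 libraries of better coverage, the KO UUO, WT UUO and KO anti-GBM groups keep 1 library each, so that fit is a weak check. The fitted difference there was -3.11 for ncRNA_aligned_1946 and -3.05 for the mir-135a-1 transcript.

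**Figure D4:**
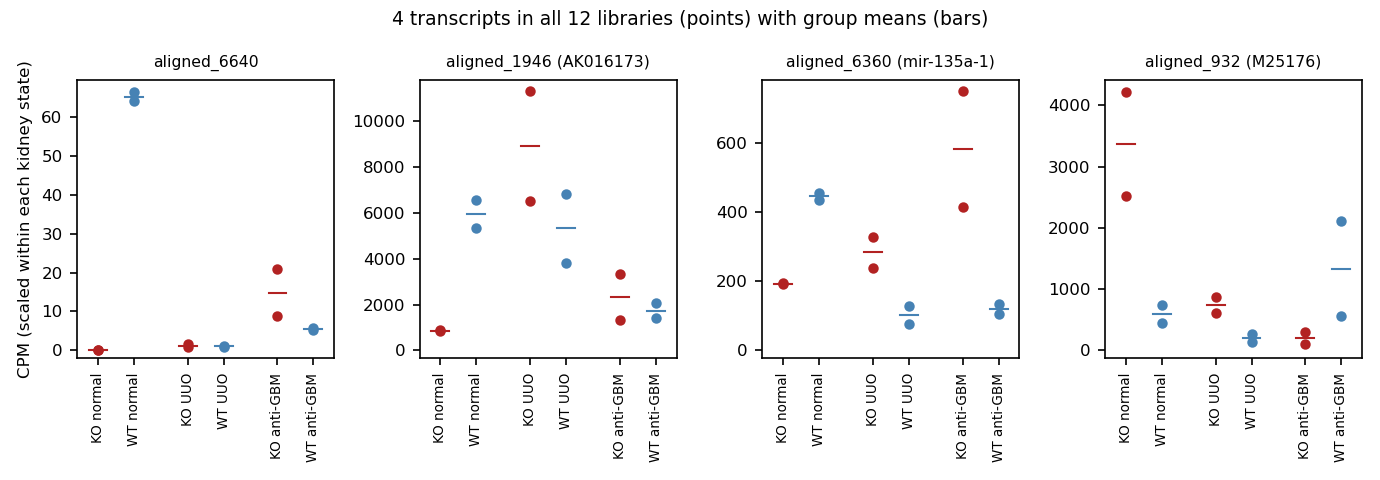
CPM in the 12 libraries (vertical axes from 0, scaled within each kidney state) of ncRNA_aligned_6640, AK016173, the mir-135a-1 transcript and M25176, with KO left of WT in normal, UUO and anti-GBM kidney. Points are libraries and bars are group means; the KO points of the first 3 lie below the WT points in normal kidney, where M25176 has the KO points above.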

How the data were processed

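Kidney RNA depleted of ribosomal RNA and size-selected above 150 bp was sequenced, per the labels' protocols. Per the submitters' processing notes the aligner was Bowtie 0.12.7 and the build mm9; assembly of the transcripts and any use of strand are not given in the sources used here. Each deposited table gives the count of uniquely mapped reads per transcript and, computed by the authors, RPKM, the percent of the transcript length covered and the mean depth signal. Tables list transcripts with at least 1 read, and an unlisted one counted as 0. The counts were tested and the deposited percent was printed. The deposited RPKM served only as a check, and the depth signal was not used.

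edgeR 4.0.16 (TMM scaling, filterByExpr, robust quasi-likelihood F test) was fitted to the 4 normal libraries in R 4.3.3; a threshold of 0.05 was set on the adjusted p. The 4-library fit was made the main one because the groups were known to differ widely in spread; the 12-library fit is given beside it. CPM use TMM sizes, log2 values are KO over WT, and the interaction is the normal effect minus the mean of the UUO and anti-GBM effects. DESeq2 1.42.0 and limma 3.58.1 (voom), other scalings, filters and leaving out each library were the alternatives. Fits without 1 library kept the transcripts of the full fit, a choice made after a first run in which the filter let in more transcripts. The ratio of covered to expected length takes reads of 1 assumed length placed at random, and serves only to compare libraries. The procedure was tested on simulated data.

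Named transcripts were: up to 10 higher and 10 lower matched calls of largest fold with mean CPM of 10 or more and no overlap, without ribosomal, transfer, spliceosomal and signal recognition particle RNAs; calls of both fits; the 5 higher and 5 lower calls with most reads; 3 higher and 3 lower predicted calls; and members of marker, TGF-β, housekeeping and messenger element lists. The rule gave 33. The groups, lists and rules were chosen with earlier results of these data known. Replicates differed by more than counting noise (chi-square per degree of freedom 19.3 in KO normal and 10.7 in WT normal), so none was merged. An exact permutation test of 2 against 2 libraries cannot go below p = 0.3333.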

Additional observations from a re-analysis of the deposited data

Results flagged for a closer look

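In 7 transcripts called lower in KO normal kidney, the genotype effect there differed from its mean in UUO and anti-GBM kidney by the interaction test (edgeR, 12 libraries, all adjusted p under 0.05). The interaction test contains the normal effect from the same libraries, so it is not independent of those calls. On the log2 scale the difference of effects was fitted as -12.95 for ncRNA_aligned_6640 (a value set by the prior count, since its KO normal libraries have no read, and no bound), -6.13 for ncRNA_aligned_2421, -5.37 for ncRNA_aligned_999, -3.73 for ncRNA_aligned_4173, -3.43 for ncRNA_aligned_1946, -3.12 for ncRNA_aligned_6360 (the mir-135a-1 transcript) and -2.95 for ncRNA_aligned_4079. Transcript ncRNA_aligned_4173 had 31.7 and 24.4 CPM in KO normal and 127 and 259 CPM in WT normal kidneys, and 319 and 313 CPM in KO UUO and 86.8 and 72.4 CPM in WT UUO kidneys. AK014162 (ncRNA_aligned_2421) had 27.0 and 18.97 CPM in KO UUO and 3.53 and 1.71 CPM in WT UUO kidneys, and 1.03 and 2.05 CPM in KO anti-GBM and 4.91 and 30.3 CPM in WT anti-GBM kidneys, so that its fitted log2 was 3.14 in UUO and -3.48 in anti-GBM kidney. Without any 1 of the normal libraries, only ncRNA_aligned_6640 of the 7 passed each time. Calls among the 7 were also lost without 1 KO anti-GBM library, and the cause was not tested.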

How the results depend on the processing

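The count of 119 (27 higher, 92 lower) became 4 (0 higher, 4 lower) in the fit over all 12 libraries, 279 (102 and 177) over the 9 libraries of higher breadth, 282 (87 and 195) with DESeq2 and 580 (213 and 367) with no filter on low counts. Leaving out 1 library at a time gave 183 to 1521 calls, 56 to 571 higher and 123 to 950 lower, with a single library standing for its group assumed to vary like the other; it was 920 without the first and 1521 without the second KO library, and 190 and 183 without the first and second WT libraries. These 4 fits kept 119, 119, 101 and 88 of the 119 calls. limma-voom gave 91 calls, DESeq2 size factors 117 and library size alone 128; the other settings stayed within 1.5 times of 119. The interaction count of 11 became 1057 over the 9 libraries, 18 with DESeq2 size factors, 39 with library size alone and 118 with no filter, with medians of 0.59, 0.66, 1.16 and 0.74; leaving out 1 library gave 1 to 82. The count of 0 in UUO became 2 over all 12 libraries, 25 with DESeq2, 19 with no filter and 0 to 5 without 1 library. The count of 0 in anti-GBM kidney became 5 over all 12 libraries, 422 with DESeq2, 195 with no filter and 2 to 6245 without 1 library, the largest without the second KO anti-GBM library. The cause of these shifts was not tested.

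Of the 48 called transcripts named singly, none changed direction in any setting of the normal comparison. Each setting reused normal libraries in which their KO and WT values do not overlap, so the direction could hardly change. Of list members that were not called, limma-voom turned Neat1 to -0.14 and Spi1 to -0.04. Besides the 44 that did not pass over 12 libraries, 7 did not pass over 9 libraries, 11 with limma-voom, 2 with DESeq2, 1 with DESeq2 size factors, 1 without the dominant transcripts, 4 with the filter of 10 reads, 3 without the robust fit, 7 without the first and 12 without the second WT library. No paired analysis was possible because the labels carry no replicate numbers; those used here follow accession order and pair nothing. With 2 libraries a group, transcripts near the floor of 3 reads could not be compared.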
